A study of Homo sapiens with 10 samples.

Results

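A group of 10 genes that epithelial cells transcribe under the transcription factor NF-kB were followed across the RNASE1 knockdown lines of a colorectal cancer cell line. They were found by gene symbol in the deposited table, and all 10 were present among its 58870 genes. There were 5 chemokines (CXCL1, CXCL2, CXCL3, CXCL8 and CCL20), 4 regulators of the NF-kB pathway (NFKBIA, TNFAIP3, BIRC3 and NFKB2) and 1 adhesion molecule (ICAM1). LS180, an established human colorectal cancer line, had been given CRISPR interference, in which a Cas9 without cutting activity is steered by a guide RNA to a promoter and represses it. The lines NTC1 and NTC2 carried non-targeting guides, and the lines sg1, sg2 and sg3 carried guides against RNASE1, a secreted ribonuclease. Each of these 5 stable lines had 1 library with the letter A and 1 with the letter B, so 4 libraries came from NTC lines and 6 from guide lines. All cells grew without any drug in serum-containing medium, and the labels name no stimulus of NF-kB. What the letters stand for, and whether A and B were separate cultures or the lines were clones, is not given in the sources used here. P-values therefore measure the spread between these libraries and lines, which may be technical.

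NF-kB dimers are held in the cytoplasm by inhibitors of the IkB family. Cytokine and microbial receptors trigger degradation of the inhibitor, and the freed dimers enter the nucleus and bind kB sites near their target genes. Among those targets are chemokines, which recruit leukocytes to the mucosa, and inhibitors that shut the pathway off again, so inhibitor transcripts such as NFKBIA and TNFAIP3 commonly climb together with chemokines after a stimulus. Colorectal cancer cells are known to release CXCL8 and CXCL1, which attract neutrophils and act on tumour vessels.

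The DNA before the members' transcription starts is shown because the kB sites there are the feature by which these genes are usually grouped. Sequences are from RefSeq on GRCh38.p14 and were matched by symbol for 10 of 10 members, with 3 start sites for NFKB2 and 1 for each other gene. A start in this section is always such a RefSeq start. CXCL8 carried the largest difference of the members in these data, so the 250 bases before its start are given, with capitals for an AP-1 match (TGANTCA) and for a GGAATTTCC match.
CXCL8 (chr4:73740319-73740568, plus strand): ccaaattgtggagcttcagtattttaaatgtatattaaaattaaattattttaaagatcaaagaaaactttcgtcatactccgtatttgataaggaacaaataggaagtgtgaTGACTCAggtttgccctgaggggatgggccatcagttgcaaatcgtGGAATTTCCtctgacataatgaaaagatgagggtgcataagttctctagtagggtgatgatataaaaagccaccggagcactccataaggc
The AP-1 match began 137 bases and the GGAATTTCC match 91 bases before the start. For the other chemokines a shorter stretch is shown, with capitals for matches to the kB consensus (10 bases, searched on both strands).
CXCL1 (chr4:73869299-73869339, plus strand): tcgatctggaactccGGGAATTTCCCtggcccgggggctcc
CXCL2 (chr4:74099248-74099288, minus strand): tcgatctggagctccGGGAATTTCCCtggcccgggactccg
CXCL3 (chr4:74038743-74038783, minus strand): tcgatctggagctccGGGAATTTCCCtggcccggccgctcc
CCL20 (chr2:227813748-227813787, plus strand): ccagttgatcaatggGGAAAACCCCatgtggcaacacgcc
CXCL1, CXCL2 and CXCL3 are neighbouring paralogs on chromosome 4, and the stretches around their matches are near copies of each other. CXCL1 and CXCL3 hold the match 79 bases and CXCL2 78 bases before the start. For the regulators and ICAM1 the capitals mark kB consensus matches, or in ICAM1 a reverse-strand match to GGAATTTCC. NFKB2 had several stretches with matches, and only 1 of them is shown.
NFKBIA (chr14:35404806-35404845, minus strand): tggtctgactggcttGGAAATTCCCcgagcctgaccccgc
TNFAIP3 (chr6:137867177-137867216, plus strand): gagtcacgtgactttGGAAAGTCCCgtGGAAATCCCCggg
BIRC3 (chr11:102317270-102317309, plus strand): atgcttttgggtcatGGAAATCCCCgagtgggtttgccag
BIRC3 (chr11:102317334-102317373, plus strand): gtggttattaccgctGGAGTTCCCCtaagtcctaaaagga
NFKB2 (chr10:102395669-102395708, plus strand): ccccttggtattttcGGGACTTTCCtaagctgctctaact
ICAM1 (chr19:10270919-10270957, plus strand): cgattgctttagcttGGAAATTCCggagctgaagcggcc
The kB consensus occurred in the 300-base windows (250 before to 50 after a start) of 8 of 10 members, all but CXCL8 and ICAM1, and in 11.3% of all 35116 windows. GGAATTTCC, a form chosen after the sequences had been seen and contained in the consensus match of CXCL1, CXCL2, CXCL3 and NFKBIA, occurred in 6 of 10 members and in 0.461% of windows. The AP-1 letters occurred on either strand in 1 of 10 members, CXCL8, and in 7.71% of windows. TATAAA, searched on the gene's strand, occurred in CCL20, CXCL8 and ICAM1 and in 7.33% of windows. A match describes these letters and is not a measured binding site.

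On GRCh38 (GENCODE release 29) the CXC chemokines lie on chromosome 4: CXCL8 (ENSG00000169429) from 73740506 to 73743716 and CXCL1 from 73869393 to 73871242 on the plus strand, CXCL3 from 74036589 to 74038807 and CXCL2 from 74097035 to 74099293 on the minus strand. CCL20 lies on chromosome 2 from 227805739 to 227817564. NFKBIA (ENSG00000100906) lies on chromosome 14 from 35401511 to 35404749, TNFAIP3 on chromosome 6 from 137867188 to 137883312, BIRC3 on chromosome 11 from 102317450 to 102339403, NFKB2 on chromosome 10 from 102394110 to 102402529 and ICAM1 on chromosome 19 from 10270835 to 10286615. All are protein-coding, and counts cover their exons. These GENCODE ranges need not begin at the RefSeq starts used for the sequences. The stretches shown for CXCL2, CXCL3, CCL20, NFKB2 and ICAM1 lie inside the ranges, and those of CXCL8 and TNFAIP3 do in part.

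Library totals ranged from 39026605 to 45050991 expected counts, with 15450 to 15830 genes at 10 or more counts each. RNASE1 checked the labels: it stood at 16.4 to 23.7 CPM (the depth-scaled count of edgeR after TMM scaling) in the NTC libraries and at 1.02 to 3.75 CPM in the guide libraries (log2 fold change -3.26, SE 0.23, edgeR adjusted p = 8.37e-05). All 10 markers of intestinal epithelium were detected. Of 9 leukocyte markers, PTPRC, MS4A1 and TYROBP were at 0 in every library, as were COL1A2 of the fibroblast list and KDR and EMCN of the endothelial list. Other markers on these lists were detected: CD68 had 329 to 415 counts per library, CD14 27 to 67 and LAPTM5 9 to 27 on the leukocyte list, and COL3A1 had 57 to 103, LUM 20 to 77 and PDGFRB 32 to 64 on the fibroblast list. In such bulk samples, fewer cells making a transcript and less of it per cell cannot be told apart.

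All members were transcribed at low to moderate levels. Per kilobase of merged exons, NFKBIA, which encodes the inhibitor IkB-alpha, was the most abundant, with a median of 13.4 CPM per kb over the 10 libraries. NFKB2, which encodes the p100 precursor of the non-canonical pathway, followed at 4.02 and CXCL1 at 3.61 CPM per kb. CXCL3 (2.25), CXCL8 (2.21) and ICAM1 (2.13 CPM per kb) lay close together, then came BIRC3 at 1.24 CPM per kb. TNFAIP3 (0.650), CXCL2 (0.648) and CCL20 (0.421 CPM per kb) were lowest. Ranges over the libraries did not overlap between NFKBIA and NFKB2, CXCL1 and CXCL3, ICAM1 and BIRC3, or BIRC3 and TNFAIP3, and the other neighbours in this order overlapped. The counts behind these levels ranged from 20 to 60 per library for CXCL2 and 21 to 37 for CCL20, and from 1090 to 1492 for NFKBIA.

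**Figure D1:**
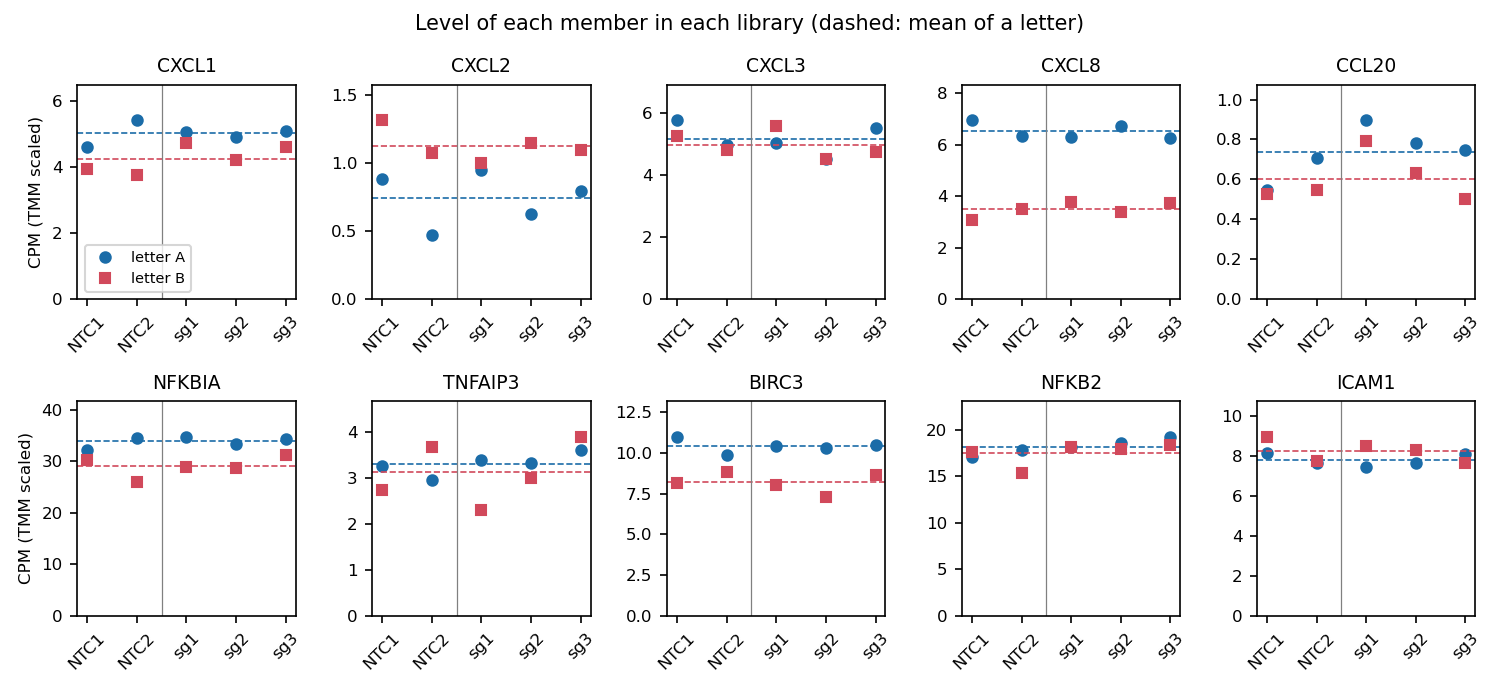
Level of each member in CPM after TMM scaling (vertical axis, from 0) in each library; circles are A and squares B libraries of the 5 lines, the dashed lines are the letter means and the grey line separates NTC from guide lines. CXCL8 lies at 6.26 to 6.94 CPM in A and 3.08 to 3.79 CPM in B libraries of all 5 lines.

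CXCL8, the neutrophil chemoattractant interleukin-8, differed between the letters and not detectably between the arms. Its A libraries held 6.94 CPM in NTC1, 6.33 in NTC2, 6.30 in sg1, 6.74 in sg2 and 6.26 in sg3. Its B libraries held 3.08 CPM in NTC1, 3.49 in NTC2, 3.79 in sg1, 3.40 in sg2 and 3.72 in sg3. Every A library was above every B library, and within a letter the lines lay close together. Letter B was lower by 0.90 on the log2 scale (log2 fold change -0.90, SE 0.09, 95% interval -1.09 to -0.71, edgeR adjusted p = 1.38e-05), which left 53.6% of the A level. Only 98 of the 16411 genes tested (0.597%) had a fold change as low. The fitted letter difference did not detectably depend on the arm (interaction 0.19, SE 0.18, edgeR adjusted p = 0.920). Between the arms CXCL8 averaged 4.96 ± 0.0738 CPM over the NTC lines (SD, n = 2) and 5.03 ± 0.0397 CPM over the guide lines (SD, n = 3), with a log2 fold change of 0.04 (95% interval -0.13 to 0.22). With A libraries alone the arm difference was -0.05 and with B libraries alone 0.15. The variance between lines within a letter was 0.923 times the variance that counting alone gives, so no spread between the 5 lines beyond counting was seen.

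CXCL2, a neutrophil chemokine that acts through the receptor CXCR2, differed between the letters in the opposite direction. Its A libraries held 0.880 CPM in NTC1, 0.472 in NTC2, 0.945 in sg1, 0.627 in sg2 and 0.794 in sg3. Its B libraries held 1.31 CPM in NTC1, 1.07 in NTC2, 0.998 in sg1, 1.15 in sg2 and 1.10 in sg3. The groups did not overlap, but in sg1 both libraries had 39 counts and differed by 0.08 on the log2 scale, against 1.18 in NTC2. Letter B was higher by 0.62 (SE 0.21, 95% interval 0.17 to 1.06, edgeR adjusted p = 0.0384), in 5 of 5 lines. This call was lost without NTC1 (adjusted p = 0.0879), without NTC2 (0.122), without sg2 (0.114) and without sg3 (0.0734), while the size stayed between 0.50 and 0.76 with any 1 line left out. DESeq2 gave CXCL2 an unadjusted p of 0.0332 and no adjusted p. Between the arms the difference was -0.01 (SE 0.22, 95% interval -0.48 to 0.46), with 0.22 in A and -0.14 in B libraries alone.

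CXCL1, which attracts neutrophils through CXCR2 too, was lower in the B library of each line without passing the test. The A libraries held 4.61 CPM in NTC1, 5.43 in NTC2, 5.09 in sg1, 4.92 in sg2 and 5.09 in sg3. The B libraries held 3.96 CPM in NTC1, 3.78 in NTC2, 4.73 in sg1, 4.22 in sg2 and 4.63 in sg3. The ranges overlapped by a narrow margin, because sg1 B and sg3 B were above NTC1 A. The letter difference was -0.24 (SE 0.09, 95% interval -0.43 to -0.05, edgeR adjusted p = 0.0517), and it passed where the line was left out of the model (adjusted p = 0.0423). Between the arms CXCL1 differed by 0.11 (SE 0.09, edgeR adjusted p = 0.799), with -0.001 in A and 0.23 in B libraries alone.

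CXCL3, the third of these paralogs, stood at 4.52 to 5.75 CPM in A and 4.50 to 5.58 CPM in B libraries, which overlapped. Its difference was -0.05 between letters (95% interval -0.23 to 0.12) and -0.06 between arms (95% interval -0.27 to 0.15). Letter B was lower in 4 lines and higher in sg1. Reads of the CXCL paralogs may be divided among them by the estimation of counts. Of the 50-base words of their transcripts, 4.81% in CXCL1, 12.5% in CXCL2 and 6.01% in CXCL3 recurred in any of the 14 other CXCL genes, and none did in CXCL8.

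CCL20, which draws lymphocytes and dendritic cells through CCR6, was the least abundant member. Its A libraries held 0.547 CPM in NTC1, 0.708 in NTC2, 0.896 in sg1, 0.784 in sg2 and 0.748 in sg3. Its B libraries held 0.525 CPM in NTC1, 0.546 in NTC2, 0.793 in sg1, 0.633 in sg2 and 0.501 in sg3. The sg1 libraries were the highest of each letter and the B library was the lower in every line, but A and B overlapped, as did guide and NTC libraries. The letter difference was -0.30 (SE 0.22, edgeR adjusted p = 0.340). The arm difference was 0.32 (SE 0.25, 95% interval -0.21 to 0.86, edgeR adjusted p = 0.789), the widest interval of the 10 members, and it includes a 1.5-fold difference.

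Among the regulators, NFKBIA was lower in letter B. The A libraries held 32.2 CPM in NTC1, 34.5 in NTC2, 34.8 in sg1, 33.4 in sg2 and 34.4 in sg3. The B libraries held 30.2 CPM in NTC1, 25.9 in NTC2, 28.9 in sg1, 28.7 in sg2 and 31.3 in sg3. All A libraries were above all B libraries, and the difference was smallest in NTC1 and largest in NTC2. The log2 fold change was -0.22 (SE 0.04, 95% interval -0.32 to -0.13, edgeR adjusted p = 0.00195), or 85.6% of the A level. Between the arms NFKBIA differed by 0.06 (SE 0.04, 95% interval -0.02 to 0.15, edgeR adjusted p = 0.743), with 0.03 in A and 0.08 in B libraries alone.

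BIRC3, the ubiquitin ligase cIAP2 that acts downstream of TNF receptors, was also lower in letter B. The A libraries held 11.0 CPM in NTC1, 9.84 in NTC2, 10.4 in sg1, 10.3 in sg2 and 10.5 in sg3. The B libraries held 8.18 CPM in NTC1, 8.81 in NTC2, 8.03 in sg1, 7.29 in sg2 and 8.63 in sg3. The letters did not overlap. The log2 fold change was -0.35 (SE 0.06, 95% interval -0.48 to -0.21, edgeR adjusted p = 0.00115), and 78.6% of the A level was left. The arms differed by -0.03 (SE 0.06, 95% interval -0.17 to 0.11).

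TNFAIP3, which encodes the deubiquitinase A20, was not lower in the B library of every line, unlike NFKBIA and BIRC3. Its A libraries held 3.26 CPM in NTC1, 2.95 in NTC2, 3.39 in sg1, 3.31 in sg2 and 3.60 in sg3. Its B libraries held 2.73 CPM in NTC1, 3.66 in NTC2, 2.30 in sg1, 3.00 in sg2 and 3.89 in sg3. The B libraries included both the lowest and the highest value, so B was lower in 3 lines and higher in NTC2 and sg3. The letter difference was -0.10 (SE 0.12, edgeR adjusted p = 0.607) and turned to 0.01 without sg1. Its variance within a letter was 3.37 times that of counting, beside 4.00 times for NFKBIA, 2.74 for NFKB2 and 1.37 for BIRC3. An antisense gene overlaps TNFAIP3 with 3 to 8 counts per library, and the libraries do not mark strand.

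NFKB2 was the only member whose guide and NTC libraries did not overlap. The NTC libraries held 17.0 (A) and 17.6 CPM (B) in NTC1 and 17.8 (A) and 15.4 CPM (B) in NTC2. The guide libraries held 18.1 in both letters of sg1, 18.6 (A) and 18.0 CPM (B) in sg2, and 19.2 (A) and 18.3 CPM (B) in sg3. The gap was narrow, from 17.8 CPM in the highest NTC library to 18.0 CPM in the lowest guide library. Such separation was found in 0.914% of all genes tested. The arm difference was 0.12 (SE 0.05, 95% interval 0.02 to 0.22), at 16.9 ± 0.534 CPM over the NTC lines (SD, n = 2) and 18.4 ± 0.346 CPM over the guide lines (SD, n = 3). It did not pass over all genes (edgeR unadjusted p = 0.0259, adjusted p = 0.537; DESeq2 unadjusted p = 0.0750). The difference was 0.09 with A libraries alone and 0.14 with B libraries alone. Between letters NFKB2 differed by -0.06 (95% interval -0.16 to 0.05).

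ICAM1, the ligand on epithelium to which neutrophil integrins attach, stood at 7.41 to 8.11 CPM in A and 7.63 to 8.94 CPM in B libraries, with B higher in 4 lines and lower in sg3. Its difference was 0.08 between letters (95% interval -0.06 to 0.22) and -0.04 between arms (95% interval -0.19 to 0.11). The variance within a letter was 0.974 times that of counting. The 2 antisense genes that overlap it had at most 4 counts in a library.

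Taken over the arms, 0 of 10 members passed the test, as against 0.0231% of the 17335 genes tested (4 genes, edgeR). At an unadjusted p under 0.05 there was 1 member, NFKB2, against 7.98% of all genes, and DESeq2 gave 0 members both adjusted and unadjusted. The members' median log2 fold change was 0.05, with 6 positive and 4 negative, beside -0.00083 for all genes. The 95% interval lay within 1.5-fold in either direction for 9 of 10 members, the exception being CCL20.

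**Figure D2:**
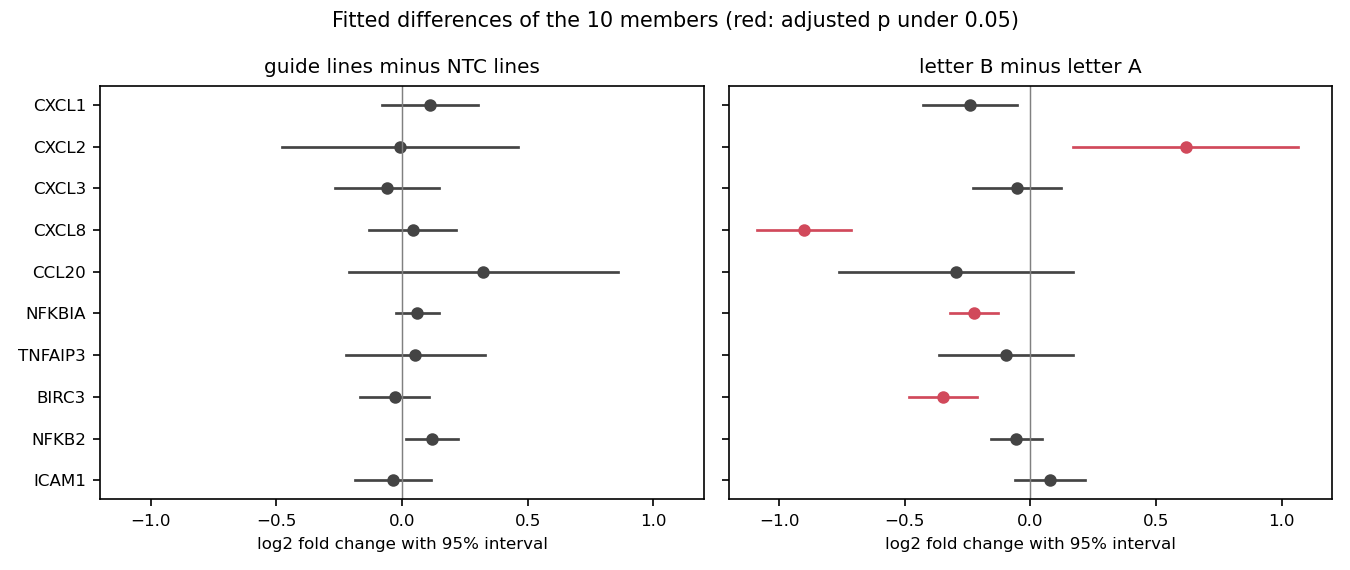
Log2 fold change of each member with its 95% interval, for guide against NTC lines (left) and letter B against letter A (right); red marks an adjusted p under 0.05. No member is red on the left, and CXCL8, BIRC3 and NFKBIA (lower) and CXCL2 (higher) are red on the right.

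Each guide line was set against the average of both NTC lines, so these comparisons share their controls. None of the 10 members passed in sg1, sg2 or sg3, beside 0.00609% of 16411 genes in each (RNASE1 alone, edgeR). None reached an unadjusted p under 0.05 in these 3 comparisons. CCL20 had the largest value in sg1 (0.54, SE 0.28, unadjusted p = 0.0803) and in sg2 (0.29, SE 0.28), and TNFAIP3 in sg3 (0.25, SE 0.18). The lowest value was that of TNFAIP3 in sg1 (-0.14), of CXCL3 in sg2 (-0.20, SE 0.11) and of ICAM1 in sg3 (-0.05). For CXCL8 the differences were 0.03, 0.04 and 0.01 in sg1, sg2 and sg3, each with an SE of about 0.41 because the spread between letters enters this fit. With the letter in the model as a replicate block the CXCL8 differences were 0.05, 0.03 and 0.03, each with an SE of 0.12, and the highest upper limit was 0.31. In that fit NFKB2 in sg3 stood at 0.15 (95% interval 0.01 to 0.29, edgeR adjusted p = 0.650) and CCL20 in sg1 at 0.54 (adjusted p = 0.691). The control lines NTC2 and NTC1 were tested likewise, with 0 members called beside 0% of all genes by edgeR (0 members at an unadjusted p under 0.05), and their largest difference was that of CXCL2 (-0.51, SE 0.44). The CXCL2 value was -0.04 without NTC2 A, -1.21 without NTC2 B, -0.77 without NTC1 A and -0.19 without NTC1 B. This fit holds no letter, so leaving out 1 library mixes the letter difference of CXCL2 into these values by construction. With the letter as a block and all libraries the value was -0.54 (SE 0.33). NTC2 was below NTC1 in both letters, at 0.472 against 0.880 CPM in A and 1.07 against 1.31 CPM in B.

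Between the letters, 4 of 10 members passed, beside 29.6% of all 16411 genes tested, so the share among the members is near that of genes in general. Letter B was lower for 3 of them (CXCL8, BIRC3 and NFKBIA) and higher for 1 (CXCL2), beside 15% of all genes lower and 14.6% higher. DESeq2 passed 3, without CXCL2. The letters did not overlap for the same 4 members, beside 19.2% of all genes. The members had a median log2 fold change of -0.16, the chemokines one of -0.24 and the regulators one of -0.16, beside 0.0004 over all genes. None of the 10 members had a letter difference that depended on the arm, beside 0% of all genes (edgeR; 0 members at an unadjusted p under 0.05 and 0 by DESeq2). Markers of other kinds differed between letters as well. Of the epithelial markers 3 were higher in B (KRT20 by 0.41, CDX2 by 0.17 and VIL1 by 0.16) and 4 lower (KRT19 by a log2 fold change of -0.39, KRT18 and KRT8 by -0.38, CDX1 by -0.09), and their sum ran from 7832 to 8032 CPM in A and 6377 to 7349 CPM in B. The CDX1 call was lost without any of NTC1, NTC2, sg2 or sg3 (adjusted p from 0.0865 to 0.102). The leukocyte list summed to 9.49 to 11.0 CPM in A and 8.66 to 10.0 CPM in B, the fibroblast list to 3.90 to 4.93 and 3.74 to 5.32 CPM, and the endothelial list to at most 0.358 CPM. LUM of the fibroblast list was lower in B (-0.63), a call lost with no line in the model and without NTC1, NTC2, sg2 or sg3 (adjusted p from 0.0577 to 0.131). Their part in the members' differences was not tested.

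Whether chemokines and NF-kB regulators move together was described by Pearson r of log2 CPM over the 10 libraries, which share 5 lines and 2 letters, so no p is given. As measured, the 20 chemokine-regulator pairs had a median r of 0.29, from -0.63 to 0.92, with 14 positive and 6 negative. With the mean of each letter subtracted, the median was 0.03, from -0.47 to 0.68, with 11 positive and 9 negative. CXCL8 and BIRC3 had an r of 0.92 as measured and 0.30 after subtraction. Over all 45 pairs of members the median r was 0.16 as measured and -0.002 after subtraction. All 134652255 pairs of tested genes had a median of -0.0005 as measured, with quartiles at -0.316 and 0.3165. After subtraction their median was 0.0005, with quartiles at -0.276 and 0.278.

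Within letters, a few pairs stood higher. NFKBIA and NFKB2 had an r of 0.81, the highest of the 45 pairs. CXCL1 ran with NFKB2 (0.68) and NFKBIA (0.65). The B library of NTC2 was the lowest of all for NFKBIA (25.9 CPM), NFKB2 (15.4 CPM) and CXCL1 (3.78 CPM). These r may rest largely on that library, and r without it is not given here. CXCL3 ran with ICAM1 (0.63). Others ran in opposite directions, such as TNFAIP3 with ICAM1 (-0.65), CCL20 with BIRC3 (-0.47) and TNFAIP3 (-0.47), and CXCL1 with CXCL2 (-0.46). The 10 chemokine pairs had a median of 0.02 and the 6 regulator pairs one of -0.13. Among the regulators, TNFAIP3 had an r of 0.52 with BIRC3 and of -0.07 with NFKBIA. Low counts limit any such r for CXCL2 and CCL20, and for CXCL8, CCL20 and ICAM1 the variance within letters did not exceed that of counting. Without NTC1 the median of the chemokine-regulator pairs was 0.17.

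**Figure D3:**
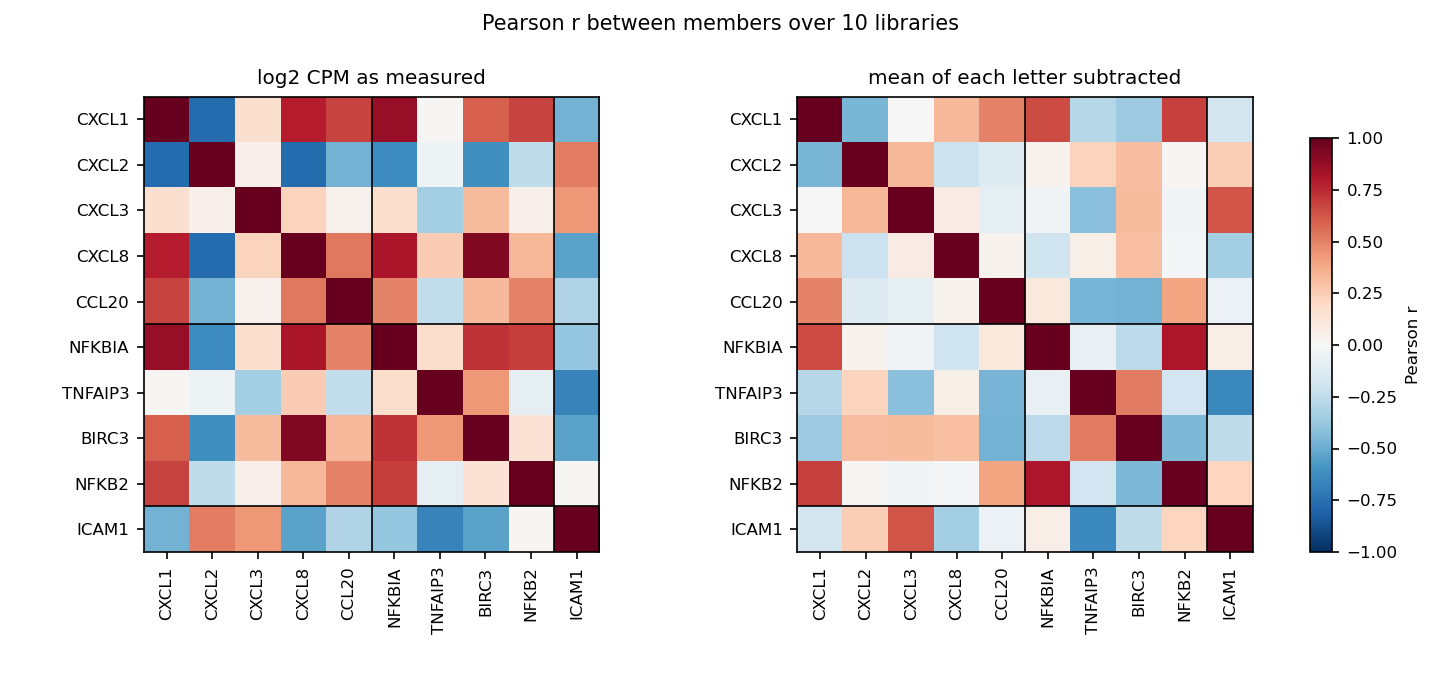
Pearson r between the members over 10 libraries, from log2 CPM as measured (left) and after subtracting each letter's mean (right); black lines separate chemokines, regulators and ICAM1, red is positive and blue negative. The block of 5 chemokines by 4 regulators has a median of 0.29 on the left and 0.03 on the right.

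The genes with a mean of at least 5 CPM whose letter-centred profile was most like the mean standardised profile of the 5 chemokines were CTSE (r = 0.97), ABCC3 (0.96), FGFRL1 (0.95), MAST2 (0.93) and MISP (0.93). Among the chemokines themselves the r with that mean ran from 0.22 for CXCL2 to 0.57 for CXCL1, although each is part of it. For the 4 regulators the most like genes were DVL3, AP000547.3 and SLC4A1AP (each 0.94), MAGI1 and KIF13A (each 0.92). The regulators' own r ran from 0.38 for BIRC3 to 0.68 for NFKBIA. These are the top of 10751 genes over 10 libraries, of which 111 reached an r of 0.8 with the chemokine profile and 70 with the regulator profile.

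The rest of the pathway was taken from lists of its genes by role. In the comparison of arms, 0 genes of any list passed by edgeR. Tested were 24 of 24 signalling genes, 15 of 16 receptors and 16 of 20 other feedback genes. So were 29 of 44 other targets and 12 of 12 AP-1 and immediate early genes. In that order, 1, 2, 2, 4 and 2 of these had an unadjusted p under 0.05 (edgeR), beside 7.98% of all genes. No gene of these lists passed in the single guide lines. Between the letters, each of these 5 lists had genes that passed, to be read against the 29.6% of all genes given above.

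Of the other feedback genes, 5 were higher and 3 lower in B. The higher ones included NFKBIZ, an atypical IkB that cooperates with NF-kB in the nucleus (0.60, SE 0.15, edgeR adjusted p = 0.00780). ZC3H12A, the ribonuclease regnase-1 that degrades inflammatory transcripts, was higher by 0.55 (SE 0.08, adjusted p = 0.000213). NFKBIB, the inhibitor IkB-beta, was higher by 0.22, so the 2 IkB genes NFKBIA and NFKBIB differed in opposite directions, and OTUD7B, a deubiquitinase, was higher by 0.21. RNF11, TNIP2 and BIRC2, the paralog of BIRC3, were lower with log2 fold changes of -0.18, -0.17 and -0.16.

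Of 24 signalling genes, 4 were higher and 3 lower in B. MAP3K14, the NF-kB-inducing kinase that drives processing of NFKB2's product, was higher by 0.72 (SE 0.14, edgeR adjusted p = 0.00147), from 2.32 ± 0.613 to 3.77 ± 0.635 CPM (SD, n = 5 libraries). An antisense gene, MAP3K14-AS1, lies against it, and their reads cannot be told apart without strand. REL, a subunit of NF-kB, was higher by 0.24 and TRADD, an adaptor of the TNF receptor, differed by -0.28. CARD10 (0.11), TRAF3 (0.09), IKBKG (-0.16, a gene with a near-identical pseudogene) and MYD88 (-0.12) passed too. The CARD10 call was lost with DESeq2, with no line in the model and without NTC1, sg2 or sg3 (adjusted p from 0.0577 to 0.217). The TRAF3 call was lost with DESeq2 and without NTC1, NTC2, sg1 or sg3 (0.0527 to 0.172). The IKBKG call was lost with DESeq2 (0.0615) and without NTC1 (0.0659), and the MYD88 call without sg2 (0.0775) or sg3 (0.0919).

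Of 15 receptors tested, 0 were higher and 5 lower in B. TNFRSF12A, the receptor for TWEAK, differed by -0.39 (SE 0.04, edgeR adjusted p = 3.88e-05), TLR3, a sensor of double-stranded RNA, by -0.38 and IL17RC, a subunit of the interleukin-17 receptor, by -0.24. TLR5, the flagellin receptor, differed by -0.49 and missed the threshold without NTC1, NTC2, sg2 or sg3 (adjusted p from 0.0723 to 0.0860). The fifth, at -1.36, had a mean under 1 CPM. Of the receptors that bind the members' products, CCR6 (1 to 19 counts per library) was the only 1 of 7 tested, and CXCR1 and CXCR2 had at most 2 counts in a library.

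Of 27 other targets tested, 4 were higher and 6 lower in B. PLAUR, the urokinase receptor, differed by -0.50 (SE 0.07, edgeR adjusted p = 0.000119), the cytokine IL18 by -0.41 (SE 0.04, adjusted p = 2.38e-05) and TNFSF15 by -0.26. LCN2, an iron-withholding antimicrobial protein, was higher by 0.25. PIGR (0.23), EFNA1 (0.19) and SOD2 (0.08) passed as well, but each call was lost under some alternatives. The PIGR call was lost with DESeq2, with no line in the model and without NTC1 (adjusted p from 0.0620 to 0.0874). The EFNA1 call was lost with DESeq2 and without NTC1, NTC2 or sg1 (adjusted p from 0.0617 to 0.178), and the SOD2 call without NTC2, sg2 or sg3 (0.0550, 0.0576 and 0.10). Of 12 AP-1 and immediate early genes, 4 were higher and 1 lower. JUN, a subunit of AP-1, was higher in B by 0.43 (SE 0.04, edgeR adjusted p = 1.46e-05), JUND by 0.15, FOSL2 by 0.13 and MYC by 0.12, and FOSL1 differed by -0.12. The FOSL1 call was lost with DESeq2, with no line in the model and without NTC1, NTC2, sg1 or sg2 (adjusted p from 0.0585 to 0.136). JUN and CXCL8 differed between the letters in opposite directions, and FOSL1 and CXCL8 in the same one. A link of AP-1 to CXCL8 was not tested.

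**Figure D4:**
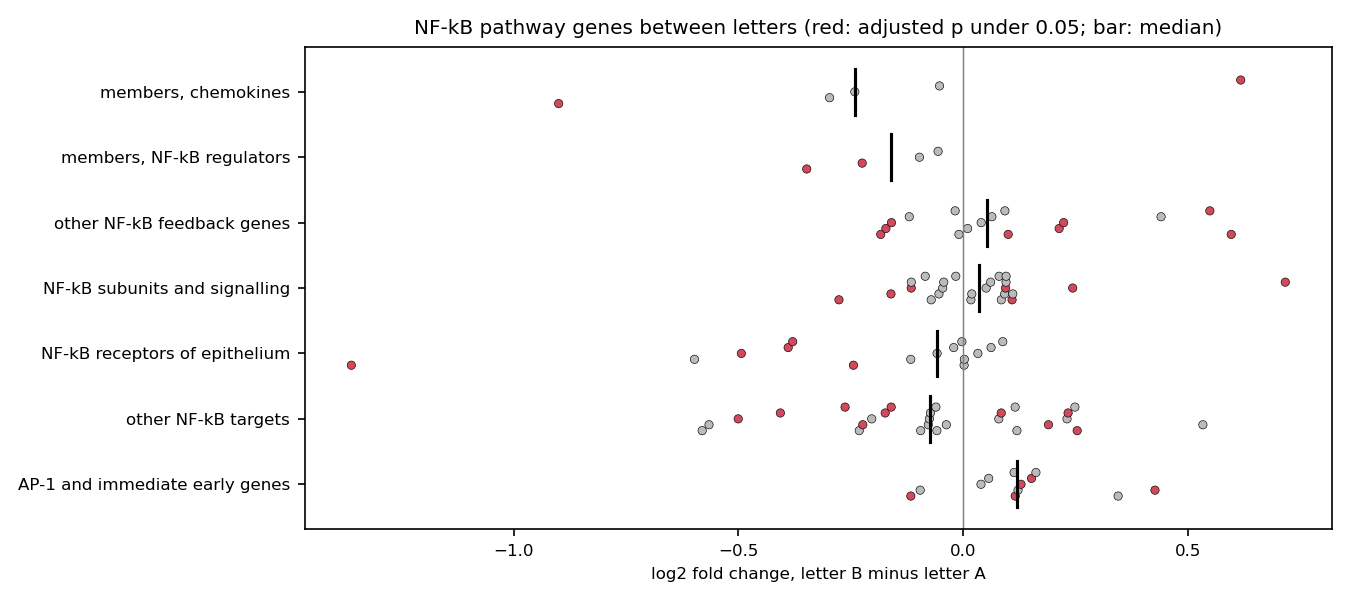
Log2 fold change of letter B against letter A (horizontal axis) for the tested genes of each NF-kB list, 1 point per gene with red for an adjusted p under 0.05 and a bar at the list's median. Red points lie on both sides of 0 in the chemokines, the other feedback genes, the signalling genes, the other targets and AP-1, and only below 0 in the receptors (5 of 15) and the member regulators (2 of 4).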

How the data were processed

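Polyadenylated RNA of 10 LS180 libraries was sequenced, per the labels' protocols without marking strand. The values the authors deposited are expected counts of 1 table, from RSEM per the name of that table. The build was hg38 per the submitters' processing notes, which also list TopHat2 2.0.8, CASAVA 1.8.2 and FastQC 0.11.2 without roles. The annotation release is not given in the sources used here. Reads that fit several genes are shared out by RSEM, so counts of paralogs and overlapping genes are uncertain. Of all values 7.12% were not whole (2 of 100 for the members), and counts were rounded before testing. GENCODE release 29 gave exon lengths and positions for 58597 identifiers. A symbol present on several rows (1 of the list genes) was taken from its row with the most counts.

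Arms were tested on A and B summed per line, single lines on all 10 libraries with 5 line means, letters with the line in the model, and the interaction with both, with edgeR 4.0.16 under R 4.3.3 (quasi-likelihood test, TMM, filterByExpr, two-sided, Benjamini-Hochberg over all genes tested, threshold 0.05). SEs and 95% intervals were derived from the fitted fold change and the F statistic. Profiles used log2 CPM with a prior count of 2. Alternatives were DESeq2 1.42.0, RLE factors, no filter, the letter as a block, single letters and left-out libraries or lines. The fits of arms, sg1 and letters were also run on counts simulated with known changes and the same spread for every gene. No result given here rests on that run.

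The members and gene lists were chosen with earlier results of these data known. Named are the members, RNASE1, up to 4 genes per list and direction past the threshold at 1 CPM or more, by size, and the 5 genes most like each profile; 1 gene that this rule takes is not reported here. No genome sequence or protein table was used here.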

Additional observations from a re-analysis of the deposited data

Results flagged for a closer look

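In 40 groups of 4 to 10 libraries of single members, the end library's distance from its nearest neighbour, as a share of the group's range, passed Dixon's limit in 2, where chance gives about 5% of groups. For CCL20 in the NTC libraries, the A library of NTC2 stood highest with a share of 0.863, at 0.708 CPM beside 0.525 to 0.547 CPM in the other NTC libraries. For NFKB2 in the B libraries, the library of NTC2 stood lowest with a share of 0.769, at 15.4 CPM beside 17.6 to 18.3 CPM in the others. With that library left out the arm difference of NFKB2 was 0.07 on the log2 scale, against 0.12 with all libraries. The cause of either was not tested.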

How the results depend on the processing

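No member was called between arms, in a single line or in the interaction under any alternative run, and the letter calls of CXCL8, BIRC3 and NFKBIA held under all 9 of theirs (CXCL8 from -0.94 to -0.83). Members' arm differences near 0 changed sign without passing. With A libraries alone CXCL1 was at -0.00101, CXCL2 at 0.216 and CXCL8 at -0.0482, and with B libraries alone TNFAIP3 was at -0.0537. With libraries or lines left out, CXCL2 ran from -0.244 to 0.275, CXCL3 from -0.142 to 0.0270, CXCL8 from -0.195 to 0.303, NFKBIA from -0.0332 to 0.147, TNFAIP3 from -0.0604 to 0.136, BIRC3 from -0.123 to 0.0639 and ICAM1 from -0.109 to 0.0404. Leaving out 1 library unbalances the letters within a summed line, which by construction mixes the letter into the arms. The letter difference of TNFAIP3 ran from -0.196 to 0.0103 with a line left out. The likeness of profiles (median r of chemokine with regulator) was 0.288 without subtracting letter means and ran from 0.000620 (without sg3) to 0.174 (without NTC1) with a line left out.

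The number of genes called between arms was 4, and 55 with DESeq2, 238 with no filter, 11 with A libraries alone and 1 to 29 with a library or line left out. For sg1, sg2, sg3 and NTC2 against NTC1 DESeq2 called 6, 4, 4 and 2 genes and no filter gave 69, 95, 86 and 57. With a library left out sg1 gave 1 to 2, sg2 gave 0 to 2 and NTC2 against NTC1 gave 0 to 1. The interaction gave 3 with DESeq2, 101 with no filter and 2 to 8 with a line left out. The causes were not tested. With the letter as a replicate block the arms gave 2 genes, sg1 4, sg2 2, sg3 6 and NTC2 against NTC1 2, and CXCL2 stood at 0.0232 between arms. Deviations from line means correlated between same-lettered libraries by 0.0647 to 0.189 over all 16411 genes (8 of 10 pairs over 0.1) and by 0.483 to 0.779 over the 9527 genes at 10 CPM or more. With 2 libraries per line the B deviations mirror the A deviations, so these r show only how far the lines share a letter difference. Whether a library was more like its letter or its line was not tested. Depth limits CXCL2 and CCL20 most, with 20 to 60 counts per library.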
